A study of Dugesia japonica with 6 samples.

Results

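The 150 transcripts described here had their highest abundance in the libraries numbered 2 of both groups, AdOx and control. They come from RNA-seq of the planarian Dugesia japonica and were selected on the very counts described here, so the values below that show them high in the libraries numbered 2 are what they were chosen by. Abundance was expressed as CPM, the count of a contig scaled to a library total of 1000000, and compared as log2(CPM + 0.5). Among the 14313 of 44723 transcript contigs with a mean of at least 8 CPM over the 6 libraries, the members are the 150 with the largest gap, which is the lower of AdOx replicate 2 and control replicate 2 minus the highest of the other 4 libraries. They make up 1.05% of the contigs that could be chosen. The difference between the libraries numbered 2 and the others is therefore given as a description, without a test, and only the AdOx against control comparison, which the rule did not use, was tested.

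Both groups were whole, intact animals of the same colony, about 1 cm long and starved for at least 7 days before the experiment, kept at 20 °C in groups of 10 in 8 mL of water. The AdOx group spent 1 month in 100 µM adenosine dialdehyde, an inhibitor of S-adenosylhomocysteine hydrolase, diluted from a stock in hydrochloric acid. The control group spent the same month in water with the acid alone. Each group had 3 libraries of poly(A)-selected RNA, each pooled from 6 animals, and the labels leave unsaid whether each library had its own vessel and whether equal numbers share a batch or day. The p-values below therefore rest on the spread among 3 libraries a group, part of which may be technical.

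Planarians are flatworms that replace any lost body part from a population of dividing stem cells, the neoblasts, and they renew their tissues all the time in the intact animal as well. S-adenosylhomocysteine hydrolase breaks down the by-product that is left when S-adenosylmethionine gives a methyl group to DNA, RNA, protein or lipid, and that by-product inhibits methyltransferases when it builds up. A whole-animal library mixes the RNA of all cell types, so fewer cells of a type and less RNA per cell cannot be told apart. Contig IDs are not paired with genes in the files, and no annotation was used here. The contigs are accordingly described by abundance, library and component, the tissue was not checked against marker genes, and only 4 IDs are printed.

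The 6 libraries held 15606794 to 20385026 counts. Reads were listed for 44181 to 44455 contigs per library, with AdOx replicate 2 the lowest and control replicate 1 the highest, as in total counts. The 100 most abundant contigs took 22.4% to 23.9% of the counts, 23.4% in AdOx replicate 2 and 23.9% in control replicate 2 (23.9% also in control replicate 3). The TMM scaling factors of edgeR were 0.978 and 0.975 in the libraries numbered 2, 0.976 in control replicate 3, and 1.02 to 1.04 in the other 3.

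Most members stood above their level in the other libraries by small, even steps. Together they took 2.08% of the counts in AdOx replicate 2 and 1.91% in control replicate 2. The same contigs took 1.62%, 1.62%, 1.52% and 1.62% in AdOx replicates 1 and 3 and control replicates 1 and 3. The gap ran from 0.16 to 0.50 on the log2(CPM + 0.5) scale with a median of 0.19, or from 1.12-fold to 1.41-fold with a median of 1.14-fold. The mean of the libraries numbered 2 was 1.16-fold to 3.03-fold the mean of the other 4, with a median of 1.26-fold, both as means on the same log2 scale. At the edge of the set the gap of the last member was 0.1642, and that of the first contig outside it 0.1636, so the limit falls within a smooth run of values.

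A few members stand far above the rest in the plot of members across the libraries. Only 6 members reached 1.5-fold in the mean of the libraries numbered 2 over the mean of the other 4, and 4 reached 2-fold. Among all 14313 contigs, 8 reached 1.5-fold (0.0559%) and 4 reached 2-fold (0.0279%), so the members hold every contig that reached 2-fold. The set thus consists of 146 contigs with small steps and 4 with large ones, a division made after the values were seen. The same 4 are the members with AdOx replicate 2 above control replicate 2 by more than 0.5 on the log2 scale. That limit was used to mark them.

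**Figure D1:**
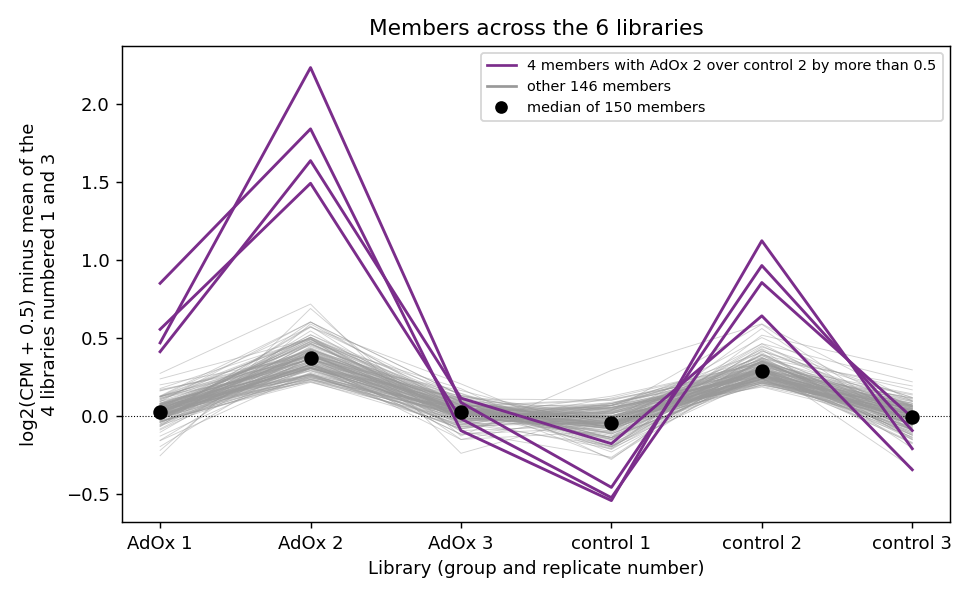
Level of each of the 150 members in the 6 libraries, as log2(CPM + 0.5) minus its mean over the 4 libraries numbered 1 and 3; black points are medians over members. The medians are 0.37 in AdOx 2 and 0.29 in control 2 and lie between -0.05 and 0.03 in the other 4, while 4 members (purple) reach 1.49 to 2.23 in AdOx 2 and also stand above the rest in AdOx 1.

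The 4 libraries numbered 1 and 3 lay close together in most members, and so did the 2 numbered 2. Among the 4 libraries numbered 1 and 3, the range from lowest to highest was 0.18 at the median member on the log2 scale, against 0.24 over all contigs that could be chosen, a difference that the rule itself favours. The highest of the 4 was AdOx replicate 1 in 48 members, control replicate 3 in 42, AdOx replicate 3 in 38 and control replicate 1 in 22. Control replicate 1 was the lowest of the 4 in 69 members, control replicate 3 in 43, and AdOx replicates 1 and 3 in 19 each. AdOx replicate 2 and control replicate 2 differed by less than 0.1 in 80 members and by less than 0.25 in 144.

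Both libraries numbered 2 lay above the other 4 in 1735 of the 14313 contigs (12.1%), from which the members are the top, and below them in 3259 (22.8%). This balance depended on scaling. With TMM factors 2697 contigs lay above (18.8%) and 2253 below (15.7%). The median difference of the libraries numbered 2 from the other 4 over all these contigs was -0.03 on the log2 scale by library totals and 0.02 with TMM, and all 150 members kept a gap above 0 with TMM, from 0.16 to 0.56.

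The members covered a wide range of abundance. Their mean CPM ran from 8.04 to 1632 with a median of 27.5, against a range of 8.00 to 12537 and a median of 20.5 over all 14313 contigs. There were 59 members below 20 CPM (39.3%, against 49.0% of all 14313), 58 from 20 to 100 CPM (38.7% against 40.5%) and 33 at 100 CPM or more (22.0% against 10.5%). Of the 100 most abundant contigs of the planarian, 2 were members, the highest of them ranked 55.

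The most abundant member stood at 1531, 1982 and 1539 CPM in AdOx replicates 1, 2 and 3 and at 1363, 1789 and 1590 CPM in control replicates 1, 2 and 3. The second most abundant was steadier, at 1178, 1454 and 1180 CPM in AdOx and 1170, 1348 and 1171 CPM in control. In both contigs the libraries numbered 2 were the highest. The other 4 spanned 0.22 on the log2 scale in the first contig and 0.01 in the second.

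Counting error limits how firmly a single gap can be read. Members had from 107 to 33429 counts in a library, with a median of 503. The exact 95% Poisson intervals of the lower library numbered 2 and of the highest other library were apart in 62 members (41.3%) and overlapped in 88. The lowest count of a lower library numbered 2 with intervals apart was 355. These intervals cover counting error only, and reads amplified by PCR are not independent molecules. The rule chose the members by the gap between these same libraries, so intervals apart are favoured by the choice and are no test of a gap. The share with intervals apart over all contigs that could be chosen is not given here.

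**Figure D2:**
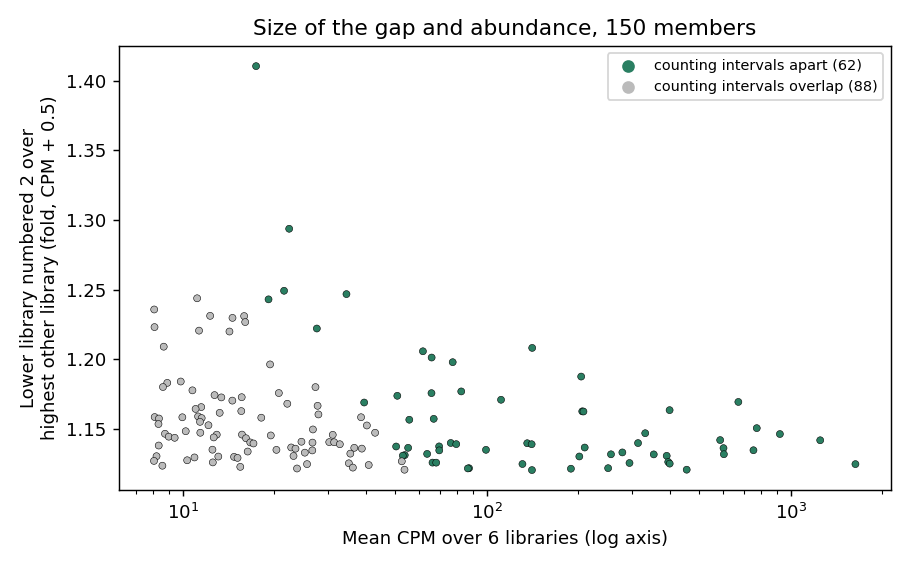
Gap of each of the 150 members as a fold (lower library numbered 2 over highest other library, on CPM + 0.5) against its mean CPM on a log axis. Green points are the 62 members whose 95% counting intervals are apart and grey points the 88 whose intervals overlap; the 33 members of at least 100 CPM have gaps of at most 1.21-fold, and the highest gap, 1.41-fold, is in a contig of 17.4 CPM.

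The largest gap was in contig comp129781_c0_seq1, the only contig listed for its component. It stood at 13.3, 46.5 and 10.1 CPM in AdOx replicates 1, 2 and 3, from 226, 726 and 171 counts. In control replicates 1, 2 and 3 it was 6.77, 19.0 and 8.86 CPM, from 138, 355 and 161 counts. AdOx replicate 2 was far above all others, control replicate 2 came next, and the groups overlapped because control replicate 2 exceeded AdOx replicates 1 and 3.

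Contig comp67919_c0_seq1, second by gap and also alone in its component, had the more common shape of the set. It stood at 20.7, 29.7 and 19.9 CPM in AdOx and at 18.0, 26.9 and 19.2 CPM in control. Both libraries numbered 2 were high by a like amount, and the other 4 lay between 18.0 and 20.7 CPM.

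The 4 members with large steps shared 1 order of libraries: AdOx replicate 2 was highest, then control replicate 2, then AdOx replicate 1, and the other 3 were lower. Besides comp129781_c0_seq1 they include contig comp139163_c2_seq3, which stood at 14.2, 33.9 and 11.5 CPM in AdOx and 9.27, 16.7 and 8.20 CPM in control. The member ranked 17 by gap was the most abundant of the 4, at 152, 302 and 78.7 CPM in AdOx and 57.5, 184 and 72.5 CPM in control. The member ranked 8 stood at 12.4, 24.2 and 8.15 CPM in AdOx and 5.59, 15.4 and 8.20 CPM in control.

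In these 4 contigs AdOx replicate 2 exceeded control replicate 2 by 0.64 to 1.27 on the log2 scale. In the other 146 members the difference ran from -0.18 to 0.31. The 4 were marked by a limit of 0.5 in this very difference, so the split is built in. Their larger AdOx over control fold changes follow from it in part. AdOx replicate 1 exceeded control replicate 1 by 0.59 to 1.39 in the 4, and AdOx replicate 3 differed from control replicate 3 by -0.01 to 0.46. The shared order occurred in 43 of the 150 members (28.7%) and in 500 of the 14313 contigs (3.49%), and the rule favours it because it puts the libraries numbered 2 on top. All 500 lie among the 1735 contigs with both libraries numbered 2 above the other 4, as all members do. Among those 1735 the order was about as common as in the members. Of the 14313 contigs, 6 had this order together with a range of at least 1 on the log2 scale over the 6 libraries, and 4 of them are these members. The 4 contigs come from 4 components.

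**Figure D3:**
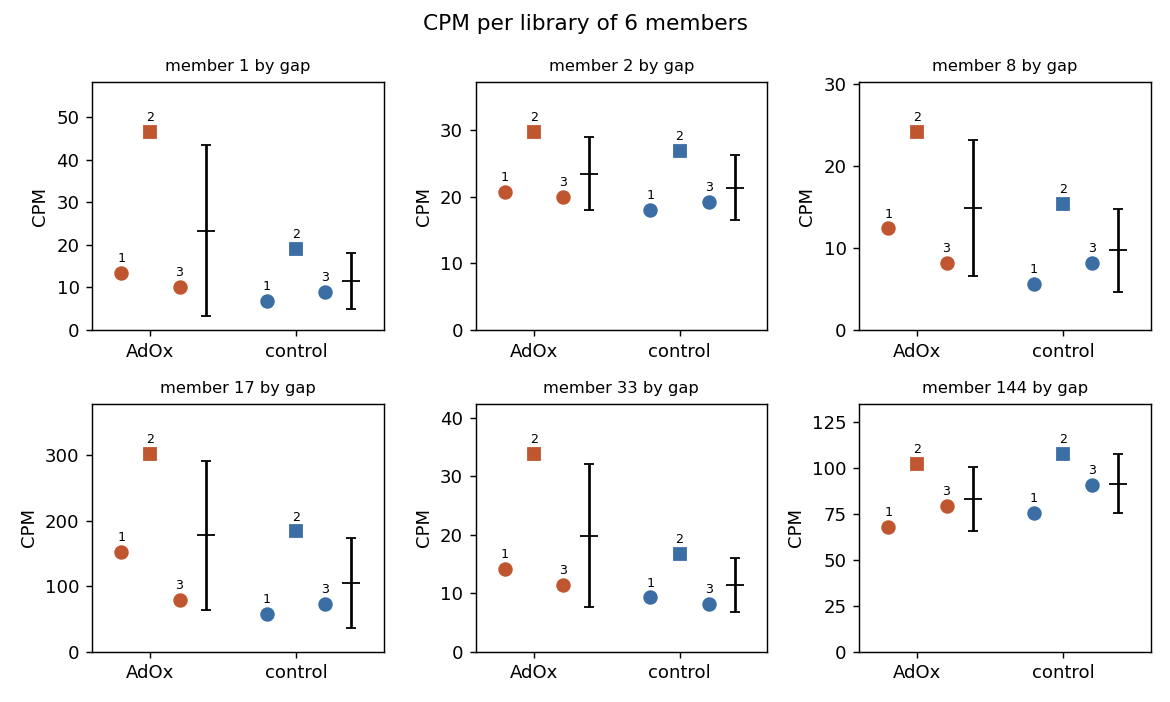
CPM per library of 6 members, named by their rank by gap; squares mark replicate 2, circles replicates 1 and 3, orange AdOx and blue control, and black bars show mean ± SD (n = 3). Members 1, 8, 17 and 33 are highest in AdOx 2, then control 2, then AdOx 1; member 2 has near-equal values in AdOx 2 and control 2; member 144 is the one listed in the authors' deposited table.

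The AdOx against control comparison, the contrast of the study, called none of the 150 members. With the edgeR quasi-likelihood test, adjusted by Benjamini-Hochberg over 38728 contigs, 0 members had an adjusted p under 0.05, against 57 of all tested contigs (0.147%), and the lowest adjusted p of a member was 0.493. At an unadjusted p under 0.05 edgeR gave 2 members, against 8.99% of all tested contigs. DESeq2's Wald test gave 0 members at either level, and its share over all contigs is not given here. The rule bears on this result: since 1 library of each group is high, no member can have its AdOx libraries all beyond its control libraries, and the spread within each group is widened. The standard error of the log2 fold change was 0.136 at the median member, against 0.112 at the median of the 14313 contigs, and a missing call does not show that AdOx and control had equal levels.

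The fold changes themselves were small apart from the 4 members with large steps. The median log2 fold change of AdOx over control was 0.06 in the members and 0.01 over all tested contigs, and 112 of 150 members were above 0 (74.7%), against 51.3% of all tested contigs. Many of the tested contigs lie below the limit of 8 CPM that every member passes. In the 146 other members the log2 fold change ran from -0.19 to 0.23. The median of the 150 followed the library left out, as the construction of the set implies. It was -0.10 when AdOx replicate 2 was left out and 0.17 when control replicate 2 was. Leaving out AdOx replicate 1 or 3 gave 0.13 or 0.12, and leaving out control replicate 1 or 3 gave -0.03 or 0.01. On the 4 libraries numbered 1 and 3 alone it was 0.03, and edgeR again called 0 members.

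With the replicate number as a block in the edgeR fit, 4 members were called, all higher in AdOx. The same fit called 1.20% of all tested contigs higher in AdOx. These are the 4 members with large steps, with log2 fold changes of 0.60 to 0.91. They were marked by a high AdOx replicate 2 over control replicate 2, so that they are the ones called is in part built in. The labels do not tie the numbers to a shared batch, and the members were chosen for the very difference that the block removes, so this fit gives them a smaller spread in part by construction.

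Among single members, comp129781_c0_seq1 had an edgeR log2 fold change of 1.00 (SE 0.44, adjusted p 0.526). Its mean was 23.3 ± 20.2 CPM in AdOx and 11.5 ± 6.54 CPM in control (SD, n = 3 each), so the difference of means was smaller than the SD in AdOx. Its log2 fold change was -0.02 when AdOx replicate 2 alone was left out, which keeps the high control replicate 2, and 1.58 when control replicate 2 alone was. It was 0.56 without both libraries numbered 2 (edgeR adjusted p 0.338), and 0.49 with voom, run here with a quality weight for each library. Contig comp139163_c2_seq3 had the next largest value, 0.79 (SE 0.32, edgeR adjusted p 0.493), and means of 19.9 ± 12.2 CPM in AdOx and 11.4 ± 4.66 CPM in control (SD, n = 3 each). The same left-out libraries gave 0.13, 1.18 and, without both numbered 2, 0.53 (edgeR adjusted p 0.210), and voom gave 0.52.

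The lowest value was in contig comp147481_c0_seq1, ranked 10 by gap, at -0.19 (SE 0.21, edgeR adjusted p 0.820). Its abundance was 10.1, 19.9 and 11.1 CPM in AdOx and 15.0, 18.5 and 13.0 CPM in control. AdOx replicates 1 and 3 lay below all control libraries, while AdOx replicate 2 lay above all of them. Leaving out AdOx replicate 2 gave -0.59 (edgeR adjusted p 0.0825) and leaving out AdOx replicate 1 gave -0.0036. Without both libraries numbered 2 the value was -0.43 (edgeR adjusted p 0.260), and voom gave -0.39. Contig comp67919_c0_seq1 had an edgeR log2 fold change of 0.12 (SE 0.17, adjusted p 0.872).

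Set against the library of the same number, AdOx was the higher in 109 of 150 members for number 1, in 117 for number 2 and in 87 for number 3. The shares over all 14313 contigs were 52.7%, 51.8% and 61.7%, so members were higher in AdOx more often than contigs at large for numbers 1 and 2 (72.7% and 78.0%) and about as often for number 3 (58.0%). The median differences were 0.07, 0.08 and 0.03 on the log2 scale in the members and 0.01, 0.01 and 0.05 over all 14313 contigs. AdOx was the higher in all 3 pairs in 56 members (37.3%, against 28.5% of the 14313) and the lower in all 3 in 12 (8.00%, against 18.4%). These shares are a description, since members can vary together and the numbers are not known to pair the libraries.

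**Figure D4:**
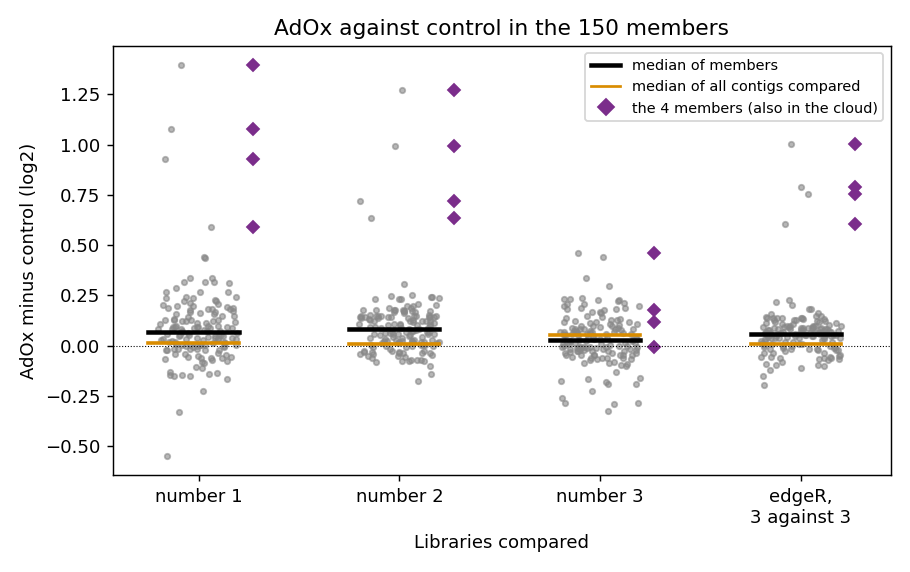
AdOx minus control in the 150 members on the log2 scale, for the libraries numbered 1, 2 and 3 and for the edgeR fit of 3 against 3 libraries; grey points are members, purple diamonds repeat the 4 members with large steps, black bars are medians of members and orange bars medians of all contigs compared. The black bars are at 0.07, 0.08, 0.03 and 0.06 and the orange bars at 0.01, 0.01, 0.05 and 0.01. All contigs compared are 14313 for the numbers and 38728 for the edgeR fit.

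The members were spread over many components, the units into which an assembly groups related contigs. The 150 members came from 143 components, and only 5 components held more than 1. In 102 of the 143 (71.3%) the member was the only contig listed, against 58.7% of the 8681 components with a contig of at least 8 CPM. Contigs of 1 component can be near-identical and may share reads, so their likeness is not independent.

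The component with the most members held 4 of them among its 5 contigs. Its most abundant member stood at 72.1, 86.5 and 75.8 CPM in AdOx and 61.0, 89.1 and 72.5 CPM in control. The contig that was no member stood at 20.3, 24.6 and 17.0 CPM in AdOx and 16.0, 23.7 and 21.2 CPM in control. Its gap of 0.15 was just under the limit, so all 5 contigs had the libraries numbered 2 on top.

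Other contigs of the members' components often had the same shape, though not always. In 38 components the files listed 95 contigs that were no members, and in 28 of these (29.5%) both libraries numbered 2 lay above the other 4, against 7.67% of all 44723 contigs. Among the 52 of at least 8 CPM it was 17 (32.7%, against 12.1%). When the counts of these other contigs were summed for each component, both libraries numbered 2 lay above the other 4 in 19 of 38 components. The mean of the libraries numbered 2 exceeded that of the other 4 in 32, with a median difference of 0.18 on the log2 scale. For these sums no share over other components is given, and the contigs may share reads with the members.

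In the other 6 components the sum of the remaining contigs was lower in the libraries numbered 2 than in the other 4, with differences from -0.01 to -0.42 on the log2 scale, so that in some it was about level. The largest difference, -0.42, was in a component of 2 contigs. Its member stood at 263, 338 and 265 CPM in AdOx and 234, 306 and 270 CPM in control, whereas the other contig stood at 24.1, 16.0 and 24.5 CPM in AdOx and 27.1, 17.8 and 16.7 CPM in control. In that contig AdOx replicate 2 and control replicates 2 and 3 were low and the remaining 3 libraries high. The component of the member ranked 8, 1 of the 4 with large steps, also belonged to these 6, with a difference of -0.18 over its 4 other contigs, while that of comp139163_c2_seq3 did not, with 0.52 over its 2 other contigs.

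**Figure D5:**
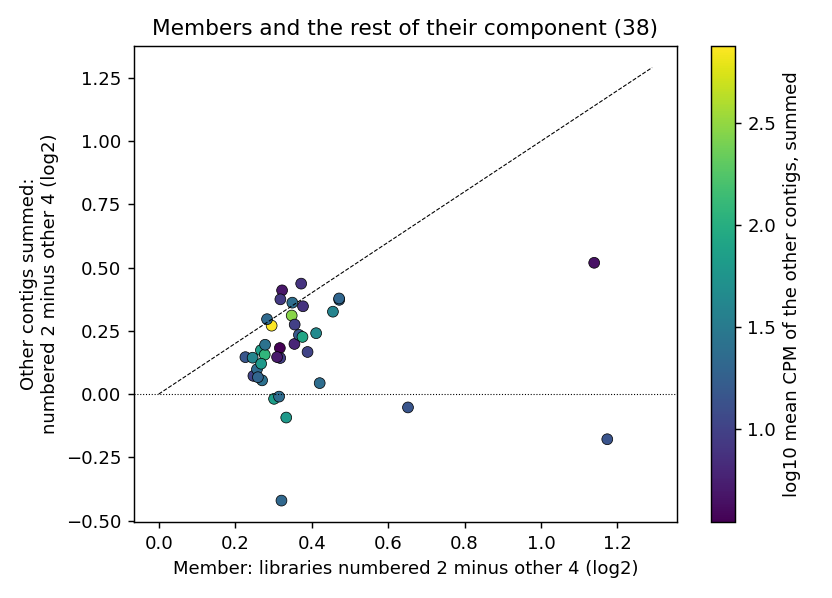
Difference of the libraries numbered 2 from the other 4 (means of log2(CPM + 0.5)) in the 38 components that list other contigs: the member on the x axis (the largest where there are several) and the sum of the other contigs on the y axis, coloured by their abundance on a log10 scale. The dashed line marks equal values; 32 components lie above 0 on the y axis and 6 below, the lowest at -0.42.

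The authors' deposited table is a DESeq2 comparison of AdOx and control that lists 119 contigs, all of at least 8 CPM. It held 1 of the 150 members, against 119 of the 14313 contigs that could be chosen. Members were thus listed about as rarely as contigs at large. Of the 9 ways to take 2 libraries per group, AdOx replicates 1 and 3 with control replicates 2 and 3 gave the mean counts of the authors' deposited table to within 0.0001%, and the next nearest differed by up to 17.9%. The table therefore contains a library numbered 2 on the control side only, so a member of the set has a high library among its controls and none in AdOx.

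The member listed, ranked 144 by gap, is given a log2 fold change of -0.50 (SE 0.13, adjusted p 0.00912) in the authors' deposited table. Its normalized counts in the 4 libraries were 1175 and 1367 in AdOx and 1949 and 1640 in control. Over all 6 libraries it stood at 68.1, 102 and 79.6 CPM in AdOx and at 75.7, 108 and 91.0 CPM in control. The table left out AdOx replicate 2 and control replicate 1. AdOx replicate 2 exceeded control replicates 1 and 3, and AdOx replicate 3 exceeded control replicate 1, so the groups overlapped. The edgeR log2 fold change on the 6 libraries was -0.15 (SE 0.16, adjusted p 0.815).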

How the data were processed

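For each of the 6 libraries the deposited file lists contigs with their raw read counts. The submitters' processing notes name Bowtie2 2.2.3 and DESeq2. Not given in the sources used here are the transcriptome, how reads were counted, whether strand was used and how reads with several matches were treated. A contig that a file does not list was taken as 0. The authors' deposited table has log2 fold changes and their standard errors, with p-values before and after adjustment. Per the file headers it also has 2 columns of unit score, the mean of the normalized counts and the Wald statistic.

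CPM used the total count of each file. Contigs kept by filterByExpr of edgeR 4.0.16 (minimum count 10, minimum total 15; R 4.3.3) were scaled by TMM and compared with the quasi-likelihood test, two-sided, group only, threshold 0.05. Standard errors are the absolute log2 fold change over the square root of F. Alternatives were DESeq2 1.42.0 size factors and Wald test, voom of limma 3.58.1, other filters, thresholds and scalings, component totals, the replicate block and left-out libraries. Wherever voom is named, it was run with a quality weight for each library, and plain voom was not run. The edgeR step was tested on simulated data. The rule, the members and the lists were chosen with earlier results of these data known. The IDs named are the 2 with the largest gap and the largest and lowest AdOx over control value not yet named; others, and the component and contigs compared in detail, were chosen after their values were seen.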

Additional observations from a re-analysis of the deposited data

How the results depend on the processing

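The list of members depended on how it was drawn. Of the 150, 142 were again chosen with CPM + 2, 117 with TMM-scaled CPM and, by component, 127 on component totals. Only 57 were chosen with a mean CPM of at least 1, 72 with a mean CPM of at least 30 (all the members above that limit) and 54 when contigs were ranked by the mean of the libraries numbered 2 minus the mean of the other 4, of which 126 of 150 still had both libraries numbered 2 on top. Leaving out 1 library gave from 39 (without control replicate 2) to 110 (without control replicate 1). By construction, fewer libraries and other filters let in other contigs.

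The count of 0 members called for AdOx against control by edgeR held with every setting run except the replicate block, including DESeq2, voom and every left-out library. The share of all contigs called is given only for the main edgeR fit and the block. With the replicate number as a block edgeR called 4 of the 150 members, all higher in AdOx, and called 1.20% of all tested contigs higher. These members are the 4 with large steps. The deviations of same-numbered libraries correlated at 0.09, 0.33 and 0.13 for numbers 1, 2 and 3, where the first missed the limit of 0.1, and control replicate 1 correlated more with AdOx replicate 3 (0.12), so the block was not used for the main result. The members were chosen for what the block removes, so its smaller residual spread in them follows in part from the rule. The median log2 fold change of members was 0.06 with the block and lay from -0.10 to 0.17 over left-out libraries or numbers. With voom and its quality weights for the libraries it was -0.0033. The first 2 by gap changed sign only when 1 library was left out, and the other named contigs did not change sign: over left-out libraries comp129781_c0_seq1 ranged from -0.019 to 1.58, comp67919_c0_seq1 from -0.11 to 0.33, comp139163_c2_seq3 from 0.13 to 1.18 and comp147481_c0_seq1 from -0.59 to -0.0036. The separate 95% counting intervals overlapped in every member with under 355 counts in its lower library numbered 2; overlap of such intervals is no test of the gap.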
